A study of Homo sapiens with 24 samples.

Results

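The comparison described here is between 3 arrays of BT-474 cells given control siRNA and 10 nM estrogen for 4 h and 3 arrays of the same cells given control siRNA and vehicle for 4 h. These are 6 of the 24 arrays of the series, chosen by their sample titles. BT-474 is an established human luminal breast cancer line that carries an amplified ERBB2 gene, which encodes the receptor tyrosine kinase HER2, and that expresses the estrogen receptor. The other 18 arrays hold HER2 siRNA with estrogen or vehicle at 4 h and 24 h and control siRNA with estrogen or vehicle at 24 h, 3 arrays per group. The vehicle was 0.001% ethanol. All groups had been given an siRNA, so none is untransfected by its labels. The series concerns HER2 signalling, the coactivator SRC-3 and E2F1-regulated genes, and this comparison addresses which RNAs differed after 4 h of estrogen in cells that had kept HER2.

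Estrogen binds the estrogen receptor encoded by ESR1, a nuclear receptor that sits on DNA at estrogen response elements, often far from the genes it regulates, and that recruits coactivators such as SRC-3. Some target genes respond within hours without new protein synthesis. Others respond later, through transcription factors and growth regulators made in the first phase, and in breast cancer cells the late phase includes entry into the cell cycle.

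Values are log2 RMA levels, 1 per probe set and array, so that 1 unit is a doubling of the signal. Each gene is represented by its probe set with the highest mean over the 24 arrays. A gene was tested if its level was at least 5 on at least 3 arrays, which left 14335 of 19775 genes. Differences are estrogen minus vehicle ± SE from limma with n = 3 arrays a group, and a gene is called when its Benjamini-Hochberg adjusted p over all genes tested is under 0.05. A level compares arrays for 1 probe set, and it does not rank different genes. Nothing in the labels tells whether the 3 replicates of a group came from separate cultures. The p-values therefore refer to the spread among these arrays, which may be technical. In these bulk samples, fewer cells of a type and less RNA per cell cannot be told apart.

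ERBB2 stood between 11.86 and 12.69 on the 12 arrays labelled HER2 siRNA, against 13.39 to 13.94 on the 12 labelled control siRNA, with no overlap. Within the comparison at hand ERBB2 was at 13.63, 13.57 and 13.49 on the estrogen arrays, against 13.52, 13.76 and 13.70 on the vehicle arrays. ESR1 was at 8.74, 9.05 and 8.97 with estrogen, against 8.75, 8.85 and 8.83 with vehicle, a difference of 0.11 ± 0.15 (95% interval −0.21 to 0.43). Of 15 luminal epithelial markers, 14 had a mean level of at least 8 over the 6 arrays, and TFAP2B was under 5. Among 13 fibroblast, leukocyte and endothelial markers with a probe set, 8 were under 5 and COL1A1 alone reached 8; among 10 basal and mesenchymal markers, 6 were under 5, while VIM and TWIST1 reached 8. The mean of the luminal list was 10.737 to 10.763 with estrogen, against 10.71 to 10.832 with vehicle; those of the basal and mesenchymal list were 5.395 to 5.629, against 5.51 to 5.523, and of the stromal and blood list 5.068 to 5.14, against 5.039 to 5.115. The 3′ minus 5′ difference of the ACTB control probe sets, a gauge of RNA integrity, was 0.96 to 1.02 with estrogen, against 0.76 and 0.91 on 2 vehicle arrays and 1.61 on vehicle replicate 1. Without vehicle replicate 1, 46 genes were called, of which 39 were among the 49 described next.

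Estrogen for 4 h moved few genes, and nearly all of them upwards. Of 14335 genes, 49 were called (0.342%), 48 of them higher (0.335%) and 1, DKK1, lower (0.00698%). Ignoring the adjustment, 562 genes had a p under 0.05 (3.92%). The differences of the 48 higher genes ran from 0.40 to 2.67 with a median of 0.83, where the median over all genes was 0.01, and 18 rose at least 2-fold. On all 49 the 3 estrogen arrays and the 3 vehicle arrays did not overlap, with gaps of 0.22 to 1.67; among all genes tested, 5.78% had every estrogen array above every vehicle array and 2.9% had every one below. The count depended on single arrays, with 27 genes called without estrogen replicate 3, 30 without estrogen replicate 2 and 31 without vehicle replicate 3. With the spread estimated from the 6 arrays alone 30 of the 49 remained called, and from the 12 arrays of 4 h 32 did. None of the 49 changed direction without any 1 array, and 25 remained called whichever 1 of the 6 arrays was left out: MPPED2, MYC, HEY2, PPM1K, C1orf226, STARD13, SLC6A14, RBM24, TFF1, PMAIP1, RARA, TSKU, CISH, MREG, SIAH2, IGFBP5, DEPTOR, SUSD3, TPBG, SLC22A5, IGFBP4, NOP16, RRS1, BYSL and TWNK.

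**Figure D1:**
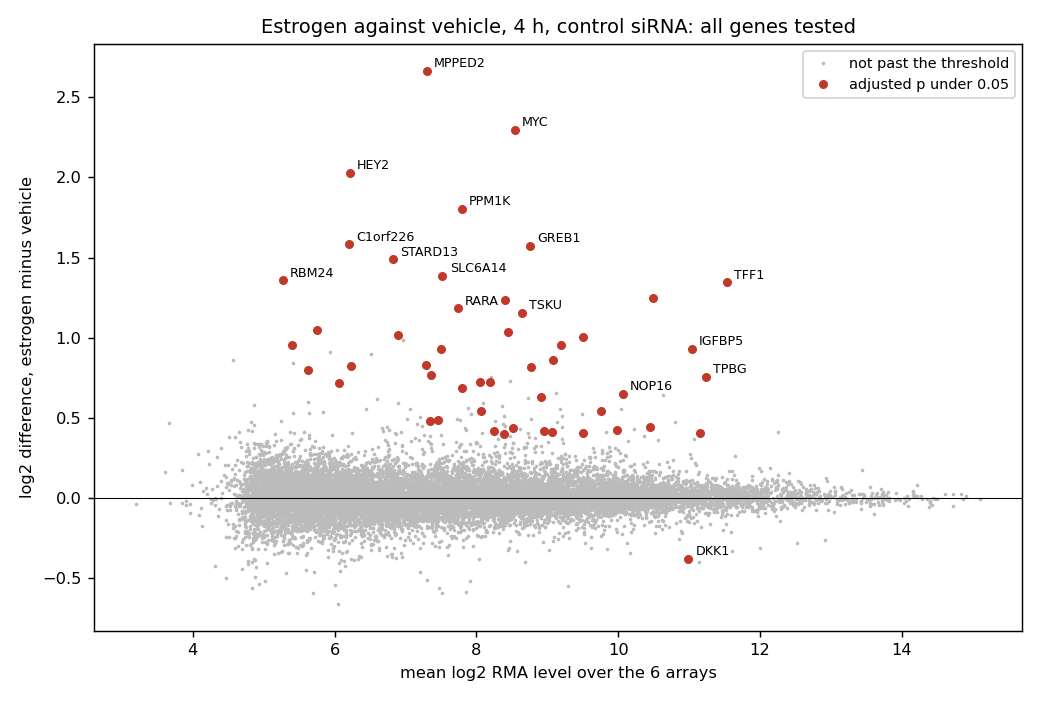
Each point is 1 of 14335 genes, with its mean log2 RMA level over the 6 arrays (x axis) and its estrogen minus vehicle difference in log2 units at 4 h with control siRNA (y axis). The called genes are coloured; 48 lie above 0 and DKK1 lies below, while the other genes centre on a median of 0.01.

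The called genes were read by role against lists of genes known to respond to estrogen in breast cancer cells. These lists, like the other lists used here, were drawn up knowing earlier results from these arrays, so their counts are not independent evidence of direction. Of 67 estrogen-induced genes on these lists 60 were tested (5 failed the filter on low levels and 2 lacked a probe set). Of the 60, 17 rose, 0 fell and 48 had a positive difference, with a median of 0.32. Over all genes tested 48 of 14335 rose (0.335%) and 7558 had a positive difference, with a median of 0.01. The transcription factors and cofactors gave 8 of 17 with a median of 0.82. Secreted, surface and transport proteins gave 4 of 20 (median 0.15), and enzymes, adaptors and other intracellular proteins 5 of 23 (median 0.22).

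**Figure D2:**
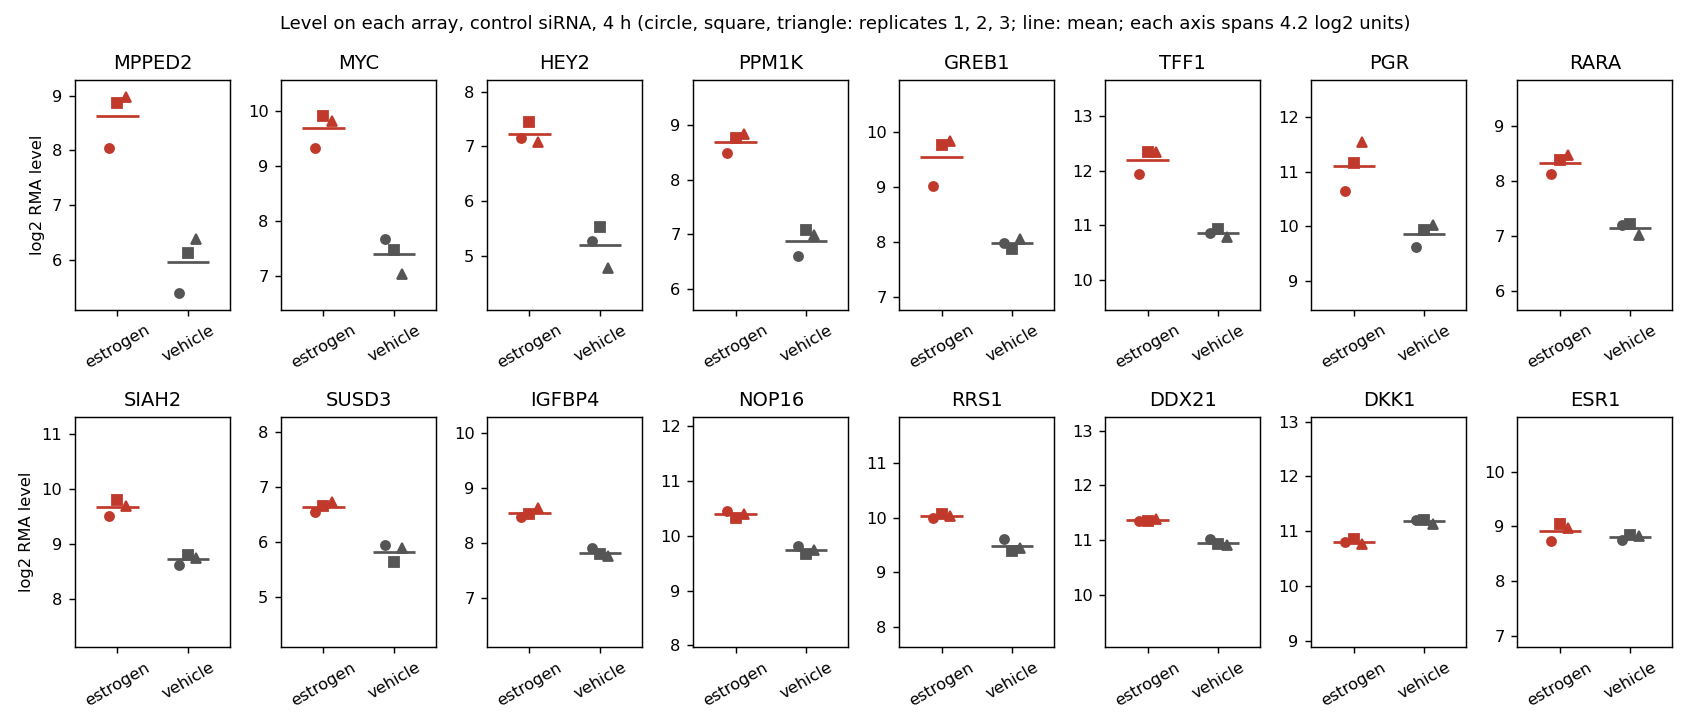
Log2 RMA levels (y axis) on the 6 arrays of 4 h with control siRNA for 15 of the called genes and ESR1, estrogen left of vehicle, each point 1 array and each line a group mean, with every panel on the same span. For the 15 called genes the estrogen arrays lie on 1 side of the vehicle arrays, below them for DKK1 and above them for the other genes, and for ESR1 the groups overlap.

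MYC, a transcription factor that drives ribosome production and cell growth, was at 9.33, 9.91 and 9.82 on the estrogen arrays, against 7.67, 7.46 and 7.04 on the vehicle arrays. All 3 estrogen arrays were above all 3 vehicle arrays, by 1.66 at the closest. The difference was 2.30 ± 0.24, a 4.91-fold rise (95% interval 3.48 to 6.94, adjusted p = 1.4e-05). HEY2, a repressor of the hairy family that acts downstream of Notch, was at 7.15, 7.45 and 7.07 with estrogen, against 5.27, 5.53 and 4.79 with vehicle. Its rise was 4.08-fold (difference 2.03 ± 0.16, adjusted p = 4.64e-07). Of the 16 Notch pathway genes tested HEY2 alone was called, and of 11 genes of the MYC, MAX and MXD network MYC alone was. Over all genes tested 0.335% were called higher. A single call in a short list does not tell how the pathway as a whole responded.

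RARA encodes the retinoic acid receptor alpha, a nuclear receptor whose sites on DNA resemble those of the estrogen receptor. It was at 8.12, 8.38 and 8.48 with estrogen, against 7.20, 7.21 and 7.02 with vehicle, a tight separation that gave a 2.27-fold rise (difference 1.18 ± 0.10, adjusted p = 4.64e-07). Only 1 of the 4 tested RARA probe sets passed on its own. With all RARA probe sets averaged the difference was 0.35, against 1.18 for the chosen probe set, and RARA stayed called. The size of the rise therefore rests on the chosen probe set. RARA was the only 1 of 13 retinoid genes called. GREB1, an early estrogen target that binds the estrogen receptor as a cofactor, was at 9.03, 9.76 and 9.84, against 7.98, 7.87 and 8.06 with vehicle. Replicate 1 was the lowest of its estrogen arrays and still above every vehicle array; the rise was 2.98-fold (1.57 ± 0.27, adjusted p = 0.00468), carried by 1 of 3 probe sets, and the call ended when the probe sets were averaged and when estrogen replicate 3 was left out (adjusted p = 0.0555). PGR, the progesterone receptor and a clinical marker of estrogen receptor activity, was at 10.65, 11.15 and 11.53, against 9.62, 9.94 and 10.03. Its arrays spread more widely than those of RARA within both groups; the 2.37-fold rise (1.25 ± 0.26, adjusted p = 0.0258) was not called in 5 of the 6 fits that left 1 array out, all but that without estrogen replicate 1, with adjusted p up to 0.261. PGR was the only 1 of 17 steroid receptors and coregulators that was called, where 0.335% of all genes tested were called higher.

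Among the other regulators, SIAH2, a ubiquitin ligase, was at 9.51, 9.81 and 9.70 with estrogen, against 8.62, 8.80 and 8.74 with vehicle (1.94-fold, adjusted p = 0.000128). ZNF703, a zinc finger cofactor of luminal breast cancer, rose 1.76-fold (0.82 ± 0.15) and lost its call without estrogen replicate 2 or vehicle replicate 1. EGR3, an immediate early zinc finger transcription factor, was low: 5.84, 6.57 and 6.39 with estrogen, against 5.37, 5.29 and 5.01 with vehicle. Estrogen replicate 1 was close to the vehicle arrays, and the 2.06-fold rise (1.05 ± 0.21, adjusted p = 0.0209) was lost without estrogen replicate 2 or 3 or vehicle replicate 2 or 3. EGR3 was the only 1 of 21 immediate early genes of the AP-1, EGR and KLF families that was called. Among all genes tested 0.335% were called higher. Of the list members that were not called, MYBL1 had a difference of 0.98 ± 0.29 (adjusted p = 0.355), KLF10 one of 0.48, XBP1 one of 0.41 and NRIP1, a corepressor of the estrogen receptor, one of 0.28. In these 4 every estrogen array lay above every vehicle array, which was also so in 5.78% of all genes tested.

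TFF1, a secreted trefoil protein and a classic estrogen target, was at 11.94, 12.33 and 12.34 with estrogen, against 10.86, 10.93 and 10.78 with vehicle. It rose 2.54-fold (1.34 ± 0.16, adjusted p = 5.94e-05). SLC6A14, an amino acid transporter of broad specificity, was at 7.85, 8.45 and 8.34, against 6.99, 6.95 and 6.54, a 2.61-fold rise (1.39 ± 0.23, adjusted p = 0.00338). It was the only 1 of 16 amino acid transporters called, where 0.335% of all genes tested were called higher. SLC7A5, the large neutral amino acid transporter, had a difference of 0.64 (adjusted p = 0.416). IGFBP4, which binds insulin-like growth factors outside the cell, was at 8.48, 8.53 and 8.63, against 7.91, 7.81 and 7.76 (1.65-fold, adjusted p = 0.00137). SUSD3, a membrane protein, was at 6.55, 6.65 and 6.73, against 5.95, 5.63 and 5.89 (1.77-fold, adjusted p = 0.0031).

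The largest rise of all was in MPPED2, a metallophosphodiesterase of the enzyme list, at 8.05, 8.86 and 8.98 with estrogen, against 5.39, 6.12 and 6.38 with vehicle. It rose 6.34-fold (2.67 ± 0.39, 95% interval 3.62 to 11.1, adjusted p = 0.000804), and replicate 1 was the lowest of both groups. PPM1K, the mitochondrial phosphatase that activates branched-chain amino acid breakdown, was at 8.49, 8.76 and 8.84, against 6.61, 7.07 and 6.98 (3.49-fold, adjusted p = 0.000145). With all probe sets of a gene averaged, the difference was 1.97 for MPPED2 and 0.92 for PPM1K, against 2.67 and 1.80 for the chosen probe sets, and both stayed called. CISH, a cytokine-induced inhibitor of STAT5 signalling, was at 8.82, 9.01 and 9.06, against 7.80, 7.96 and 8.03, and all 3 of its probe sets passed (2.05-fold, adjusted p = 1.4e-05). RERG, a small GTPase of the Ras family named for its regulation by estrogen, rose 1.90-fold, and ADCY9, an adenylyl cyclase, rose 1.70-fold; their calls were lost without estrogen replicate 2 or 3, and that of RERG also without vehicle replicate 2 or 3. CCND1, the cyclin D1 gene, was 0.35 higher without passing (adjusted p = 0.514), and HSPB8, a small heat shock protein, 0.66 higher (adjusted p = 0.464).

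Ribosome biogenesis is the nucleolar work of transcribing ribosomal RNA with RNA polymerase I, processing it and assembling it with proteins. Of 44 list genes 39 were tested, and 8 rose, 0 fell and 37 had a positive difference. This list too was drawn up knowing earlier results from these arrays, so its counts are not independent evidence of direction. Over all 14335 genes 48 rose (0.335%) and 7558 had a positive difference. The list median was 0.20, where that of all genes was 0.01. The rises of the 8 ran from 0.40 to 0.68. NOP16, a nucleolar protein, was at 10.46, 10.32 and 10.40 with estrogen, against 9.81, 9.68 and 9.74 with vehicle (1.57-fold, 0.65 ± 0.09, adjusted p = 0.000235). RRS1, an assembly factor of the large subunit, was at 9.99, 10.07 and 10.02, against 9.61, 9.40 and 9.45 (1.46-fold), and BYSL, an assembly factor of the small subunit, at 8.26, 8.37 and 8.37, against 7.89, 7.85 and 7.64 (1.46-fold). The RNA helicase DDX21 was at 11.34, 11.35 and 11.38, against 11.02, 10.94 and 10.91, a rise of only 1.32-fold.

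The polymerase I subunits POLR1B and POLR1C rose 1.54-fold and 1.32-fold, and the endonuclease NOB1 1.33-fold. LYAR, a nucleolar protein of cell growth, rose 1.61-fold, at 8.13, 8.13 and 8.19 with estrogen, against 7.84, 7.26 and 7.28 with vehicle. Vehicle replicate 1 lay close to its estrogen arrays, and the call was lost in 5 of the 6 fits that left 1 array out, all but that without vehicle replicate 1 (adjusted p up to 0.294). NOP2, an RNA methyltransferase (0.45, adjusted p = 0.104), URB2 (0.44, adjusted p = 0.118) and WDR43 (0.38, adjusted p = 0.108) were positive without passing. NPM1 and FBL, abundant nucleolar proteins, had differences of 0.03 and 0.06, and UBTF, an RNA polymerase I factor, one of −0.07. The count of 8 rested on single arrays: it was 3 without vehicle replicate 3, 4 without estrogen replicate 2 or estrogen replicate 3, and 5 without estrogen replicate 1 or vehicle replicate 2. It was also 3 with the spread estimated from the 6 arrays alone or from the 12 arrays of 4 h. RIOK1, PUS1 and WDR3, which act in small subunit maturation, RNA pseudouridylation and the small subunit processome, were not on the list and rose 1.34-fold, 1.40-fold and 1.33-fold. They were named after their values were seen, so they add no independent evidence.

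**Figure D3:**
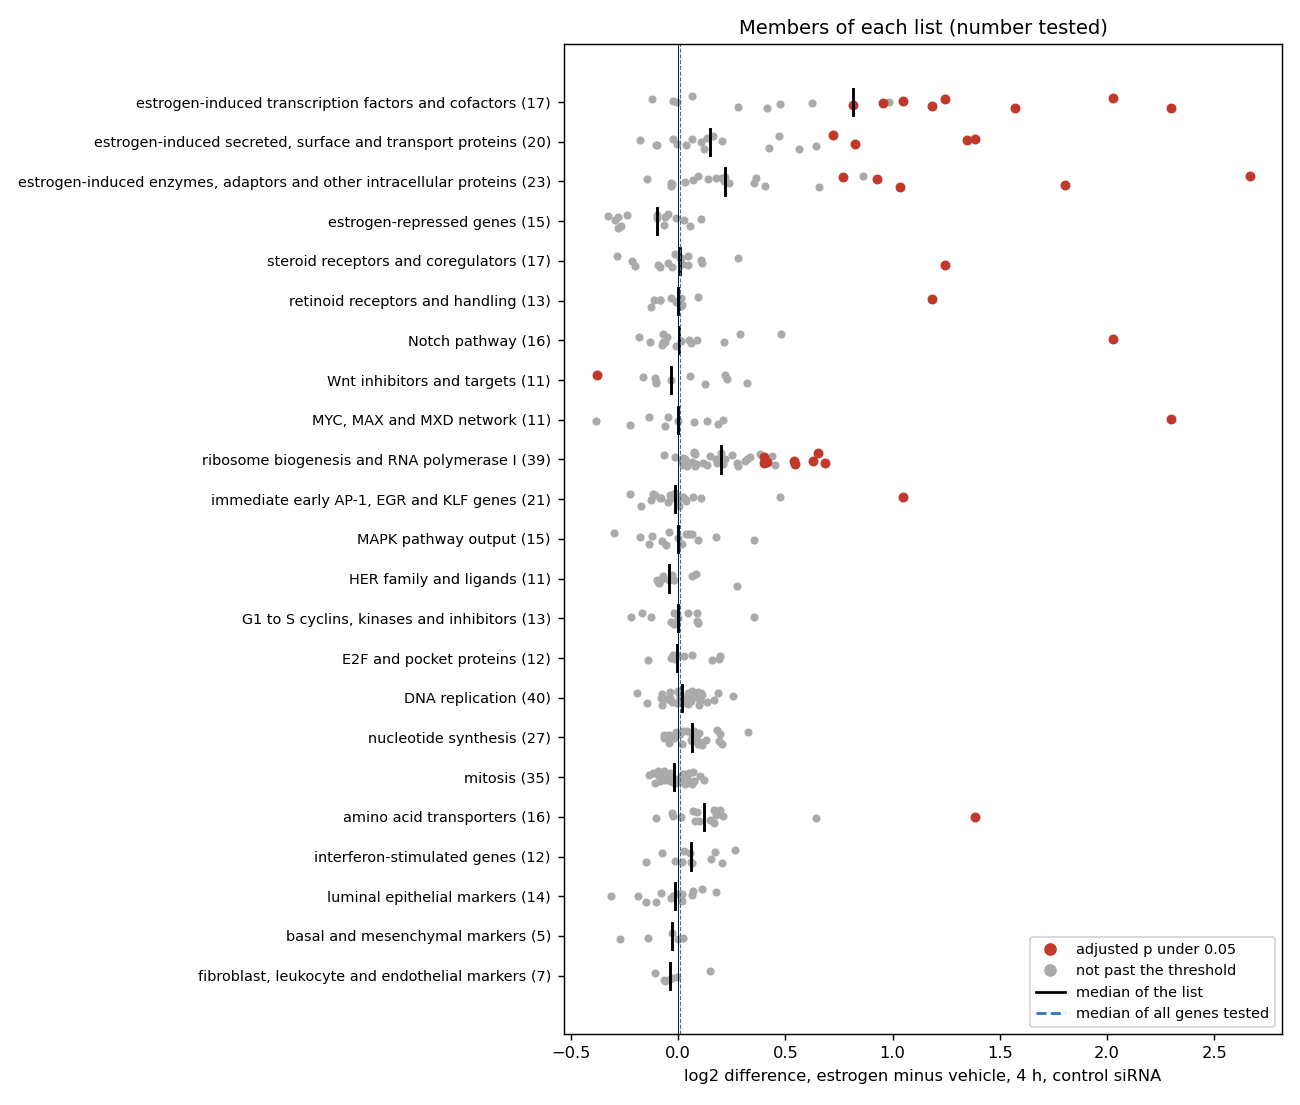
For each gene list, the estrogen minus vehicle difference in log2 units at 4 h with control siRNA, 1 point a tested gene, called genes in red, the others in grey and the list median as a black bar. The estrogen-induced transcription factors (median 0.82) and the ribosome biogenesis genes (median 0.20) lie to the right of 0, and the DNA replication genes (median 0.02) and mitosis genes (median −0.02) lie around it.

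There were 23 higher genes on neither kind of list. C1orf226 was among those whose arrays lay closest together, at 6.92, 6.92 and 7.13 with estrogen, against 5.39, 5.41 and 5.42 with vehicle (2.99-fold, adjusted p = 9.2e-06). STARD13 was at 7.44, 7.59 and 7.66, against 6.18, 6.05 and 6.0 (2.81-fold, difference 1.49). Its difference was 0.92 when its probe sets were averaged, and it stayed called. RBM24, an RNA-binding protein of splicing, was low and scattered, at 5.96, 6.43 and 5.46, against 4.72, 4.43 and 4.62. All 3 vehicle arrays were under the filter level of 5, so that within these 6 arrays RBM24 reached it only with estrogen, and no fold is given. PMAIP1 encodes NOXA, which promotes apoptosis by binding MCL1. It was at 8.79, 9.13 and 9.15, against 7.83, 7.65 and 7.90 (2.35-fold, adjusted p = 0.000145), and both of its probe sets passed.

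TSKU, a secreted leucine-rich protein, rose 2.23-fold, and MREG, a vesicle transport protein, 2.00-fold with both probe sets passing. IGFBP5, a second binding protein for insulin-like growth factors, was at 11.42, 11.59 and 11.51, against 10.79, 10.57 and 10.37 (1.91-fold), and 2 of its 6 probe sets passed. DEPTOR, an inhibitor of the mTOR kinase, was at 9.28, 9.58 and 9.69, against 8.78, 8.63 and 8.56 (1.82-fold). TPBG, a surface glycoprotein that dampens Wnt signalling, rose 1.69-fold, and the carnitine transporter SLC22A5 1.65-fold. TWNK, the mitochondrial DNA helicase, was at 7.53, 7.69 and 7.53, against 7.13, 7.12 and 7.04 (1.40-fold).

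The remaining higher genes lost their call when single arrays were left out. They were C6orf141 (2.03-fold), CCDC110 (1.94-fold), FGD3 (1.78-fold), NOD2, a sensor of bacterial cell walls (1.74-fold), HERC6 (1.64-fold), ZNF121 (1.36-fold), PDCD2L (1.36-fold), EEIG1, an early estrogen-induced gene (1.34-fold), and KDM4B, a histone demethylase that works with the estrogen receptor (1.32-fold). CCDC110, RIOK1 and DKK1 lost their call whichever 1 of the 6 arrays was left out. Of the 49 genes 28 had 1 tested probe set and 21 had several, and in 6 of the 21 every probe set passed; no probe set passed in the other direction. KDM4B, with 1 of 7 probe sets, and WDR3, EEIG1, TPBG, SLC22A5, ZNF703, ADCY9, HERC6, C6orf141, NOP16 and GREB1 were not called when all probe sets of the gene were averaged. HERC6, LYAR, POLR1B, PUS1, TWNK, ZNF121, PDCD2L, EEIG1, RIOK1, WDR3, NOB1, KDM4B and POLR1C fall outside the rule for named genes and are named, after their values were seen, so that every called gene is accounted for.

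DKK1, a secreted inhibitor of Wnt signalling, was the 1 gene that fell. It was at 10.80, 10.85 and 10.76 with estrogen, against 11.21, 11.20 and 11.14 with vehicle. The groups were narrow and did not overlap, and the difference was −0.38 ± 0.08 (95% interval −0.54 to −0.21, 0.77-fold, adjusted p = 0.0339). Of 11 tested Wnt inhibitors and targets it alone was called, where 0.342% of all genes tested were called. The call of DKK1 also ended without a filter on low values, with equal array medians, with every probe set tested on its own, and with the spread estimated from fewer arrays. Of 15 tested genes known to be repressed by estrogen none passed, with a median of −0.10: IL1R1, an interleukin receptor, had a difference of −0.33 (adjusted p = 0.378) and CCNG2, an atypical cyclin, one of −0.27 (adjusted p = 0.607).

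Lists tied to cell division showed no call at 4 h, where 0.342% of all genes tested were called. At that share, lists of the sizes below would hold few calls or none. None of the 40 DNA replication genes, 35 mitosis genes, 27 nucleotide synthesis genes, 13 cyclins, kinases and inhibitors of the G1 to S step or 12 E2F and pocket protein genes passed, and their medians were 0.02, −0.02, 0.07, 0.00 and −0.01. None passed among 15 genes of MAPK pathway output (median 0.00), 11 of the HER family and its ligands (median −0.05) or 12 interferon-stimulated genes (median 0.06). The marker lists gave none either, among 14 luminal, 5 basal and mesenchymal and 7 stromal and blood genes. The median SE of a difference was 0.11, and a count of 0 does not show that these genes stood still.

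The sequence just before the transcription start was read for the 37 of 48 higher genes that matched a promoter in RefSeq (GRCh38.p14), over the 250 bases upstream of the start. The full palindrome of the estrogen response element, the letters GGTCA and TGACC with any 3 bases between them, was in none of the 37. It was in 2 of the 16527 promoters of the tested genes, of which some genes have several. A gene counts as having a motif when any of its promoters does, so shares per gene and per promoter are unlike measures. Its core hexamer AGGTCA, read on both strands, was in 8 of 37 (21.6%), against 12.7% of 11448 tested genes with a promoter. Per promoter of the tested genes the share was 9.53%. The E-box CACGTG, the hexamer that MYC and its partner MAX bind, was in 8 of 37 (21.6%), against 10.9% of tested genes with a promoter. Per promoter of the tested genes it was 8.07%. Among 32 ribosome list genes with a promoter each hexamer was in 4. These are matches of letters, and binding was not measured here; a promoter without the letters says nothing about distant elements. The following stretches are shown because their genes had among the tightest separations or stand for the ribosome group. They run 5′ to 3′ on the gene's strand, with the hexamer in capitals. They lie at chr17:40308938-40308967 (plus strand) for RARA, chr2:216034182-216034211 (minus strand) for MREG, chr5:176388747-176388776 (minus strand) for NOP16, chr10:68956516-68956545 and chr10:68956604-68956633 (plus strand) for DDX21, chr4:4290068-4290097 (minus strand) for LYAR, chr3:150763189-150763218 (minus strand) for SIAH2 and chr13:33285803-33285832 (minus strand) for STARD13.
RARA, core hexamer: ttctcctgtttcAGGTCAtcctatcctcga
MREG, core hexamer on the other strand: cattttttaacaTGACCTggggcttggctc
NOP16, core hexamer: gcctcccggtgaAGGTCAtgaaaggggcgg
DDX21, core hexamer on the other strand: tccgccgtgcgcTGACCTcttcctctgagc
DDX21, E-box: ggccgggtgtccCACGTGgtccccggcgac
LYAR, E-box: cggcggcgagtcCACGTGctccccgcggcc
SIAH2, E-box: tgggcggccgcaCACGTGtccaggcgtcac
STARD13, core hexamer that overlaps an E-box: cattggttcccgAGGTCAcgtgagggcccc
In the STARD13 stretch the last letters of the hexamer run on into the E-box. The DDX21 promoter held both hexamers apart from each other, the E-box 26 bases before the start and the core hexamer 114 bases before it. DDX21 rose 1.32-fold and STARD13 2.81-fold.

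The same treatment and time were measured on other arrays in cells given HER2 siRNA and thus at a lower ERBB2 level. For HER2 siRNA estrogen 4 h replicate 3 the labels disagree, with 24 h in the source name and 4 h in the title, description and characteristics; it was placed at 4 h. There 100 genes were called (0.698%), 95 higher (0.663%) and 5 lower (0.0349%), with 7.41% of genes at an unadjusted p under 0.05. Of the 48 genes that rose with control siRNA, 37 also rose with HER2 siRNA, which is 77.1% of the control siRNA list and 38.9% of the 95. All 48 had a positive difference, with a median of 0.83 with control siRNA and 0.95 with HER2 siRNA, and 23 of 48 were larger with HER2 siRNA. The 48 were selected by their control siRNA effect, so comparing these medians and sizes is not independent of that selection. DKK1 fell in both (−0.38 and −0.47). Without HER2 siRNA estrogen 4 h replicate 3, 64 genes were called there and 33 were shared, and with the spread estimated from each comparison's own arrays 28 were called and 19 were shared. The ACTB 3′ minus 5′ difference was 2.30 on HER2 siRNA estrogen 4 h replicate 1, against 1.32 and 0.935 on replicates 2 and 3. The running number of that replicate 1 also lies apart in the labels. Without it 94 genes were called with HER2 siRNA and 39 were called higher with both siRNAs.

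The effects themselves were then compared, as control siRNA effect minus HER2 siRNA effect. No gene passed (0 of 14335 with limma, 403 or 2.81% at an unadjusted p under 0.05), nor in any of the alternatives run. MYC rose by 2.30 ± 0.24 with control siRNA and 2.78 ± 0.24 with HER2 siRNA, and the interval of the difference was −1.19 to 0.22. For RARA the effects were 1.18 and 1.18 (interval −0.29 to 0.29), for GREB1 1.57 and 1.64 (−0.85 to 0.73), and for NOP16 0.65 and 0.57 (−0.18 to 0.33).

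Of the 49 called genes, 7 had an unadjusted p under 0.05 for this difference and none an adjusted one. These genes were selected by their control siRNA effect, which is part of the difference, so these values are not independent of that selection. The effect was the smaller with control siRNA for PMAIP1 (1.23 against 2.09), SUSD3 (0.82 against 1.58), TFF1 (1.34 against 1.95) and IGFBP4 (0.72 against 1.15). It was the larger with control siRNA for EGR3 (1.05 against 0.22), ZNF121 (0.44 against 0.16) and NOB1 (0.41 against 0.11). EGR3 with HER2 siRNA was at 5.16, 5.46 and 5.53 with estrogen, against 5.18, 5.20 and 5.12 with vehicle, so that those groups overlapped. The 11 genes called only with control siRNA were EGR3, NOD2, LYAR, POLR1B, PUS1, ZNF121, RIOK1, WDR3, NOB1, DDX21 and POLR1C. Of the 39 ribosome genes 8 rose with control siRNA and 4 with HER2 siRNA (medians 0.20 and 0.14). Of the 60 estrogen-induced genes 17 and 29 did (medians 0.32 and 0.53), where 0.335% and 0.663% of all genes tested did. No gene of either list passed the test of the difference between effects.

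**Figure D4:**
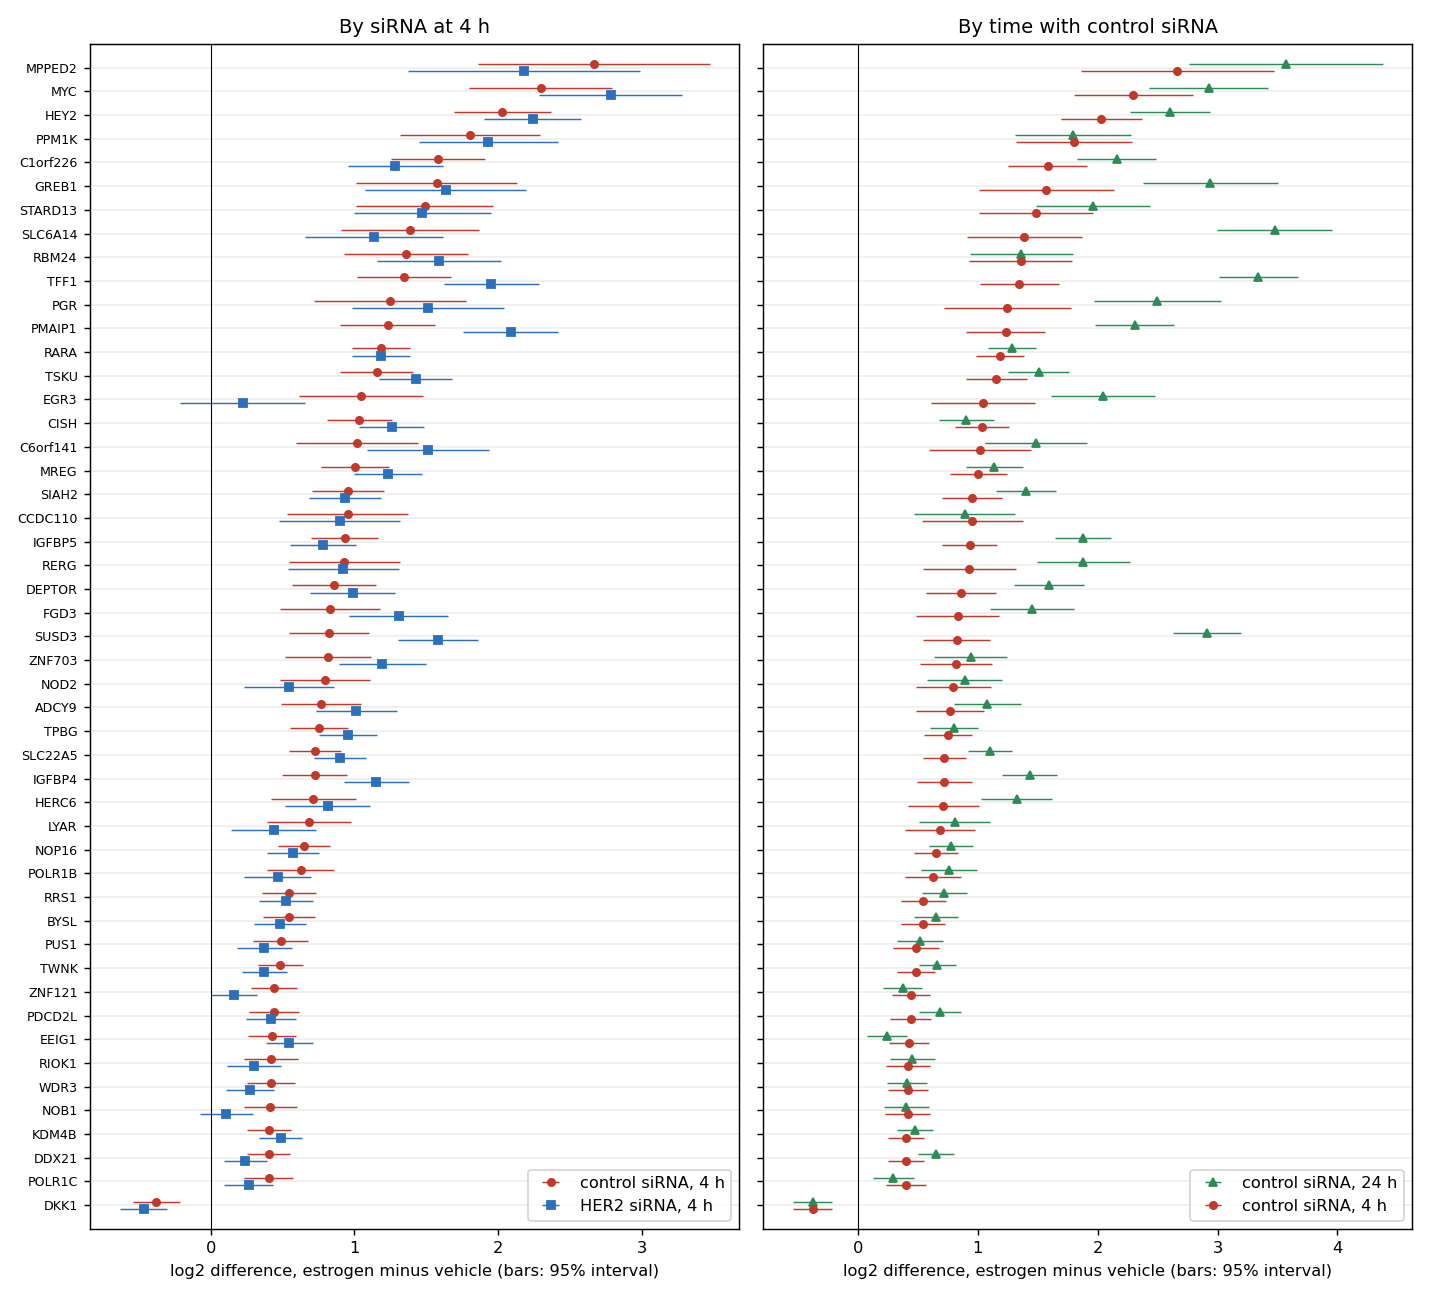
Estrogen minus vehicle differences in log2 units (x axes) with 95% intervals for the 49 called genes (y axis), at 4 h with control siRNA and with HER2 siRNA (left) and at 24 h and 4 h with control siRNA (right). The 48 higher genes are right of 0 in all 3 comparisons, and for 40 of them the 24 h point lies right of the 4 h point.

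At 24 h with control siRNA the estrogen effect reached far more genes, 1005 higher (7.01%) and 934 lower (6.52%). All 48 genes that rose at 4 h were also called higher at 24 h (highest adjusted p 0.0448), with a median of 1.21 at 24 h and 0.83 at 4 h. The difference was larger at 24 h in 40 and smaller in 8, which were PPM1K, CISH, CCDC110, ZNF121, EEIG1, WDR3, NOB1 and POLR1C. The 48 were selected by their 4 h effect, so these counts and medians are not independent of that selection. DKK1 was 0.38 lower at both times. The test of 24 h effect minus 4 h effect called 183 of 14335 genes (1.28%), 97 higher (0.677%) and 86 lower (0.6%). Replicate 1 of both 24 h groups and of HER2 siRNA estrogen 4 h carry running numbers apart from the other 21 arrays in the labels, and without these 3 arrays 111 genes were called. Leaving out single arrays gave 91 genes without estrogen 24 h replicate 3, 96 without vehicle 4 h replicate 3, 108 without estrogen 4 h replicate 2, 117 without vehicle 24 h replicate 3 and 120 without vehicle 24 h replicate 1.

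Of the 48 genes, 6 had a larger effect at 24 h by that test and none a smaller one. Their 4 h effect, by which they were selected, is part of the difference tested, so these counts are not independent of that selection. SLC6A14 rose by 3.48 at 24 h and 1.39 at 4 h, with 24 h levels of 10.13, 10.41 and 10.56 with estrogen, against 6.93, 6.80 and 6.95 with vehicle. SUSD3 rose by 2.91 and 0.82, and TFF1 by 3.34 and 1.34, with TFF1 at 13.78, 14.10 and 14.00 after 24 h of estrogen. PMAIP1 rose by 2.31 and 1.23, IGFBP5 by 1.88 and 0.93, and IGFBP4 by 1.44 and 0.72. Over the estrogen-induced lists, 7 of 20 secreted, surface and transport proteins, 3 of 23 enzymes, adaptors and other intracellular proteins and 0 of 17 transcription factors and cofactors had a larger effect at 24 h by the same test. Over all genes tested the effect was higher at 24 h in 0.677%. The medians of 24 h effect minus 4 h effect were alike in these lists, at 0.455, 0.312 and 0.402 in the same order. Over all genes tested that median was −0.02. The counts therefore do not set the transcription factors apart from the other lists.

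MYC rose by 2.92 at 24 h and 2.30 at 4 h (24 h minus 4 h 0.63, interval −0.08 to 1.33, adjusted p = 0.487), HEY2 by 2.60 and 2.03 (adjusted p = 0.29) and RARA by 1.28 and 1.18 (adjusted p = 0.849). PGR and GREB1 rose by 2.50 and 2.94 at 24 h, against 1.25 and 1.57 at 4 h, without passing (adjusted p = 0.0944 and 0.0818). For CISH the effects were 0.90 and 1.03, and for PPM1K 1.79 and 1.80. Over all genes tested 7.01% were called higher at 24 h and 0.335% at 4 h, and 0.677% had a higher effect at 24 h by the test between times. Of the 17 tested estrogen-induced transcription factors 12 were called at 24 h and 8 at 4 h. For the 39 ribosome genes the counts were 29 and 8, with medians of 0.41 and 0.20, and 2 of the 39 passed the test between times. Among the 40 DNA replication genes 36 were called higher at 24 h and 0 at 4 h, with medians of 0.57 and 0.02, and the effect itself differed between the times in 14. The 35 mitosis genes gave 11 and 0, and the 27 nucleotide synthesis genes 18 and 0, with 1 and 7 passing the test between times. Of the 15 estrogen-repressed genes 7 fell at 24 h and 0 at 4 h, and 2 passed the test between times. Over all genes tested 6.52% fell at 24 h and 0.00698% at 4 h, and 0.6% had a lower effect at 24 h by that test.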

How the data were processed

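Total RNA of BT-474 cells was labelled with biotin (3′ in vitro transcription) and measured on 24 Affymetrix HG-U133 Plus 2.0 arrays, 3 in each of 8 groups. The deposited values are log2 levels made by the authors with RMA, per the submitters' processing notes; its version is not given in the sources used here. No further normalization was applied, and depth for arrays is their number.

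Of 54675 probe sets 41091 had 1 gene symbol, 1801 several and 11721 none in the platform annotation, and 62 were controls; 41037 symbols were matched to current ones by Entrez identifier. Using limma 3.58.1 (R 4.3.3), group means were estimated from all 24 arrays together, and variances were moderated (4.92 prior degrees of freedom), and the script was tested on simulated data. Benjamini-Hochberg adjustment ran over 14335 genes. Tables and figures used Python 3.11.15. The genes named are the 30 with the largest called difference each way, up to 4 per list by adjusted p, 5 each way in differences of effects, ESR1 and ERBB2, with exceptions stated. The comparison, the lists and this rule were chosen with earlier results of these data known. The alternatives changed the filter, the probe sets, the arrays in the fit, the scaling, the variance model and the replicate block, and left out arrays.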

Additional observations from a re-analysis of the deposited data

Results flagged for a closer look

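With control siRNA, the estrogen effect differed between 24 h and 4 h in 183 genes by the test of the difference itself (limma, adjusted over all genes, estrogen minus vehicle at 24 h less the same at 4 h). Among the genes that rose at 4 h, the effect was larger at 24 h by 2.09 in SLC6A14, 2.09 in SUSD3, 2.00 in TFF1, 1.08 in PMAIP1, 0.95 in IGFBP5 and 0.71 in IGFBP4 on the log2 scale.

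Other genes had no call at 4 h and a call at 24 h. TCN1, a vitamin B12 binding protein, gained 3.58 ± 0.37, with 11.09, 11.11 and 11.13 after 24 h of estrogen, against 7.46, 6.84 and 7.01 with vehicle. At 4 h it was at 8.52, 7.79 and 7.92 with estrogen, against 8.49, 7.10 and 7.36 with vehicle, so the groups overlapped. KLK11, a secreted serine protease, gained 1.68, the MCM helicase subunit MCM6 0.71, the transcription factor MYBL2 0.70 and the replication fork protein TIPIN 0.57.

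The effect was more negative at 24 h for CBLN2 (−1.86), PSCA (−1.15), the receptor ERBB4 (−1.15), SOCS2-AS1 (−1.12), UBE2QL1 (−1.03), the cyclin-dependent kinase inhibitor CDKN1C (−0.99) and the luminal transcription factor GATA3 (−0.64). CBLN2 was at 6.54, 6.43 and 6.22 after 24 h of estrogen, against 8.94, 8.64 and 8.88 with vehicle, while its 4 h difference of −0.56 did not pass (adjusted p = 1.00).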

How the results depend on the processing

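None of the 49 called genes changed direction under any alternative run, and 17 were counted as called in all of them. That count includes MPPED2 and SUSD3, for which the adjusted p summarised per gene was not under 0.05 in every alternative. It was 0.132 for MPPED2 with every probe set tested on its own, and reached 0.502 for SUSD3. RBM24 is counted too, though it was not tested in the alternative that asked for a log2 level of 7 or more. The count of 49 called genes was 27 to 46 with single arrays left out, and 81 with array weights; the 48 higher genes were 27 to 46 and 78. The main fit did not pair arrays by replicate number. Correlations of deviations from group means between equal numbers were 0.099, 0.113 and 0.355, and −0.299 to 0.184 between unlike numbers. Equal numbers gave 0.206, −0.036 and 0.555 with HER2 siRNA at 4 h, and 0.414, 0.057 and 0.411 with control siRNA at 24 h. The replicate block, alone or with the number series of the labels, gave 76 and 75 genes, including all 49. The 1 lower gene became 0 without a filter, with every probe set, with the 4 h arrays only and with equal medians, 5 with either block, 3 with array weights and 0 to 1 with arrays left out. The 8 ribosome genes were 3 with only the groups compared or the 4 h arrays, and 3 to 8 with arrays left out; the 17 estrogen-induced genes were 12 to 17. With HER2 siRNA the 100 called genes were 28 with only the groups compared, 153 with the replicate block and 64 to 95 with arrays left out, and the 37 genes shared were 19 with only the groups compared. The 183 genes whose effect differed between times were 278 at a log2 level of 7, 450 with the replicate block, 414 with the block and number series, 111 without the arrays numbered apart, 490 with array weights and 91 to 182 with arrays left out. The cause of these shifts was not tested, and no gene passed for the difference between siRNAs in any alternative. With 3 arrays a group, small differences were not detectable.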
